A study of Mus musculus with 2 samples.

Results

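The nuclei described here were 611 of the 8714 nuclei of a single-nucleus RNA-Seq study of the mouse vagus nerve ganglia. They were chosen by their own counts. A nucleus was taken when the summed unique molecular identifiers (UMIs) of *Col25a1*, *Slc47a1*, *Slc26a7*, *Rspo3* and *Adamtsl3* reached at least 4 and at least 12 per 10000 UMIs of that nucleus. That sum also had to exceed the summed UMIs of *Scara5*, *Abi3bp*, *Gpc3*, *Itgbl1*, *Ebf2* and *Pdgfra*, and the summed UMIs of *Slc6a20a*, *Ranbp3l* and *Slc6a13* could not exceed 2. They are called Col25a1, Slc47a1 nuclei below, and the levels of these 14 genes in them are a description of the choice.

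The study asked which molecular types of cells the ganglia hold in female and male mice. All mice were C57BL/6J animals of the genotype Rosa26-floxed-STOP-Cas9-eGFP on standard chow, bought at 8 to 9 weeks of age, with AAVrg-Cre injected into the liver, so that both groups carried the same allele and virus and differed in sex. Ganglia were taken 4 weeks after the injection, 14 from 7 females in 1 pool and 16 from 8 males in another, and each pool gave 1 library. The animals of a pool cannot be told apart, and sex and library cannot be told apart either. With 1 library per sex no test of a difference between the sexes was possible, and no p-value is given. The intervals below are exact 95% intervals and cover counting error only. Where a pair of values is given, the female library comes first and the male library second. *EGFP*, the reporter that Cre switches on, had 0 UMIs in the chosen nuclei of either library.

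Ganglia and nerve trunks are wrapped in layers of connective tissue that continue, near the skull base, into the meninges around the brain. Fibroblasts of these layers make collagens and other matrix, carry different signalling molecules and transcription factors according to their layer, and in the arachnoid form a barrier rich in solute transporters. Solute carriers move ions, amino acids, vitamins and drugs across membranes, and R-spondins such as *Rspo3* make cells more sensitive to Wnt ligands.

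Of 3791 nuclei from females, 221 were chosen (5.83%, exact binomial interval 5.10 to 6.62), and of 4923 from males, 390 (7.92%, 7.18 to 8.71). The chosen nuclei gave 864532 and 1263605 UMIs. Their median depth was 2967 and 2511 UMIs and their median number of genes 1765 and 1608.5. For comparison served the nuclei with at least 4 UMIs of the 6 genes from *Scara5* to *Pdgfra* and at least as many of them as of the 5 choosing genes (Scara5, Abi3bp nuclei, 808 female and 799 male, median 2879 and 2818 UMIs). That rule sets no level per nucleus and took in nuclei of up to 124136 and 121725 UMIs. A strict subset was therefore used beside it, with at least 12 per 10000 and at most 2 UMIs of *Slc6a20a*, *Ranbp3l* and *Slc6a13* (569 and 505 nuclei). Nuclei with at least 4 UMIs of those 3 genes and more of them than of either other gene set are called barrier fibroblast nuclei (239 and 314). Of these, 148 also met the rule for Scara5, Abi3bp nuclei. The 2600 female and 3491 male nuclei of none of the 3 classes had median depths of 2191 and 2674 UMIs and are called the remaining nuclei.

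The summed UMIs of the 5 choosing genes ranged from 4 to 206 per nucleus among females, with a median of 21.0, and from 4 to 108 among males, with a median of 16.0. Per 10000 UMIs the sum ranged from 13.4 to 321 (median 70.6) and from 12.2 to 317 (median 61.0). Most nuclei therefore lay far above the limit of 12, and few lay at its edge. Just inside were 45 nuclei with a sum of 4 or 5 UMIs, 14 with a level between 12 and 15 per 10000, 9 in which the sum exceeded the *Scara5* set by 1 UMI, and 10 with 2 UMIs of the barrier genes. Just outside were 23 nuclei that failed only for a sum of 3, 20 that failed only for a level between 9 and 12 per 10000, 8 whose sums were equal and 59 that had too many barrier gene UMIs only.

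**Figure D1:**
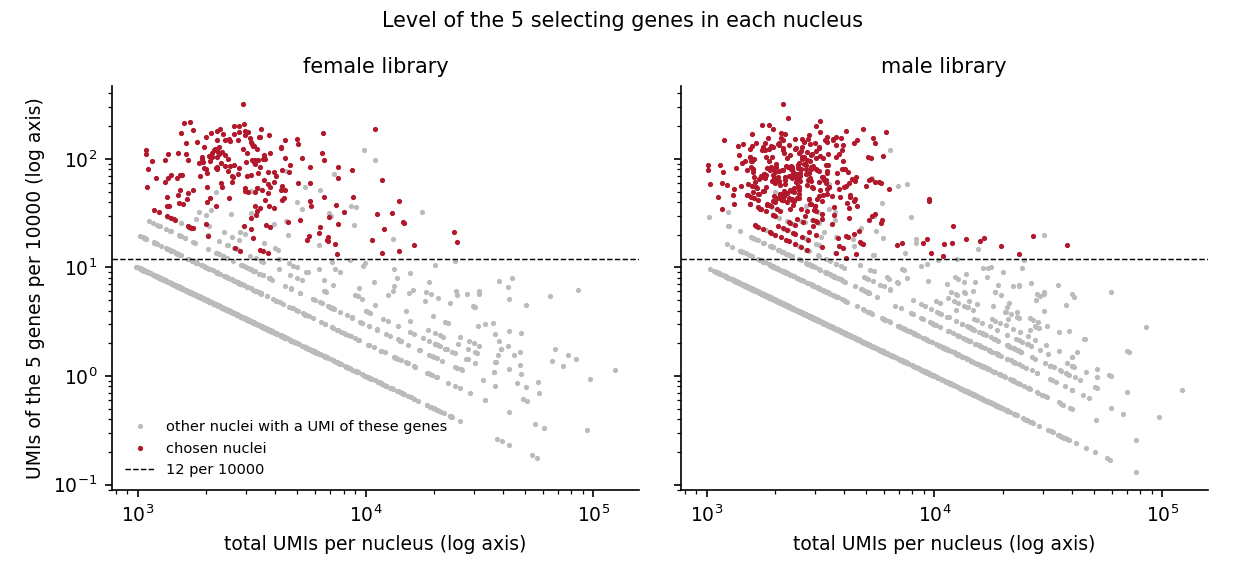
Summed UMIs of *Col25a1*, *Slc47a1*, *Slc26a7*, *Rspo3* and *Adamtsl3* per 10000 UMIs (vertical, log axis) against the total UMIs of each nucleus (horizontal, log axis) in the female and male libraries, for nuclei with at least 1 such UMI. The chosen nuclei (red) reach medians of 70.6 and 61.0 per 10000, the dashed line marks 12 per 10000, and the diagonal bands are nuclei with the same small whole number of UMIs.

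No doublet caller was run here, and the study states that low-quality nuclei and possible doublets had been removed with Cell Ranger and DIEM, of which its methods describe the filter on debris. Some of the 611 nuclei still held at least 3 UMIs of markers of another cell type, among them macrophage genes (*Mrc1*, *F13a1*) in 10, endothelial genes (*Flt1*, *Pecam1*) in 9 and adipocyte genes (*Plin1*, *Pparg*) in 4. The libraries shared 8 cell barcodes, and 1 chosen nucleus carried such a barcode. The libraries also stood apart, in every class of nuclei, in lists of genes known from other tissues. The source of this RNA was not tested, nor was its part in the differences between the sexes given below. Genes of cerebellar granule cells and *Prl* were higher in the female library, and genes of sympathetic neurons were higher in the male library.

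The proposed label of these nuclei, fibroblast-like, was checked against lists of markers. The 15 fibroblast markers summed to 19.6 UMIs per 10000 (18.7 to 20.5) and 14.1 (13.4 to 14.7), against 8.17 and 5.38 in the remaining nuclei. Of the 15, 13 were higher than in the remaining nuclei in both libraries, and 10 were at least 2-fold higher with intervals off 1 in both. Among the 10 were *Col1a1*, *Col1a2*, *Col3a1*, *Col6a1*, *Col6a2*, *Col6a3*, *Fbn1* and *Mgp*. The share of all genes that pass these limits against the remaining nuclei is not given here. Counts of markers above the remaining nuclei, here and below, are therefore descriptions. The remaining nuclei hold neither of the other fibroblast classes, by their rules, which lowers these markers there. The Scara5, Abi3bp nuclei held 22.2 and 14.0 UMIs per 10000 of the same list, and their strict subset held 41.7 and 38.6. The barrier fibroblast nuclei held 16.8 and 13.6. *Dcn*, which encodes the matrix proteoglycan decorin and was the most abundant gene of the list, stood at 4.04 and 2.45 UMIs per 10000 in the chosen nuclei, 2.37 and 1.58 in the remaining nuclei, 8.76 and 5.85 in the Scara5, Abi3bp nuclei and 17.2 and 17.8 in the strict set. *Dcn* was thus somewhat above its level in the remaining nuclei and below that of both Scara5 sets. *Pdgfra*, the fibroblast receptor that counted against choice, was at 0.382 and 0.301 per 10000, against 0.0966 and 0.0538 in the remaining nuclei.

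The 19 barrier fibroblast markers summed to 10.4 and 8.97 UMIs per 10000, above the 3.38 and 2.11 of the remaining nuclei and far below the 77.5 and 70.1 of the barrier fibroblast nuclei. *Bmp6* led that list, at 3.54 and 2.68, and *Foxc1*, *Foxc2*, *Zic1* and *Zic4* were at least 2-fold above the remaining nuclei in both libraries. The defining genes *Slc22a8* (0.0347 and 0.0317) and *Lama1* (0.0231 and 0.00791) were near 0. *Slc6a20a*, which the choice had limited, stood at 0.104 and 0.142. Of the 8 endoneurial fibroblast markers, none was 2-fold above the remaining nuclei in both libraries, *Wif1* was at 0 UMIs and *Osr2* at 0.0116 and 0.00791 per 10000. Of the 8 perineurial markers, *Gli1* alone was 2-fold higher, and the sum of 4.43 and 2.57 per 10000 lay below the 8.42 and 7.88 of the strict Scara5, Abi3bp nuclei. Of the 10 epineurial and adventitial markers, *Dpp4*, *Sfrp4* and *Fndc1* were 2-fold higher, and *Sfrp2* was at 0, as also in the female remaining nuclei. That list summed to 2.34 and 1.76 per 10000, against 0.925 and 0.673 in the remaining nuclei. Its sum was 1.66 and 0.912 in the Scara5, Abi3bp nuclei and 2.97 and 2.01 in their strict subset.

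Genes of satellite glia, neurons and vessels summed to less than in the remaining nuclei. Neuronal genes summed to 22.3 and 34.9 UMIs per 10000 in the chosen nuclei, against 36.8 and 49.9 in the remaining nuclei, satellite glia genes to 14.0 and 13.3, against 19.3 and 17.5, and endothelial genes to 1.84 and 1.35, against 3.22 and 1.80. Muscle genes summed to 1.85 and 0.823, against 2.30 and 0.539. None of the mural, satellite glia, neuronal, macrophage or adipocyte markers was 2-fold higher than in the remaining nuclei in both libraries, while *Cdh5* of the endothelial list and *Actn2* of the muscle list were. The part of free RNA from other cells in these sums was not tested.

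Among the choosing genes, *Col25a1* encodes a membrane-bound collagen, *Slc47a1* a proton-driven exporter of organic cations, *Slc26a7* an anion exchanger, *Rspo3* a secreted enhancer of Wnt signalling and *Adamtsl3* a secreted relative of the ADAMTS proteases that lacks the protease domain. In mm10 coordinates with GENCODE gene models, *Col25a1* (ENSMUSG00000058897) spans chr3:130131501-130599877 on the plus strand and *Slc47a1* (ENSMUSG00000010122) spans chr11:61343401-61378345 on the minus strand. *Slc26a7* spans chr4:14502430-14621805 and *Rspo3* chr10:29452416-29535867, both on the minus strand, and *Adamtsl3* spans chr7:82335694-82614450 on the plus strand. Counts were taken over whole genes, with introns.

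*Col25a1* reached 21.1 and 19.0 UMIs per 10000, against 0.228 and 0.231 in the Scara5, Abi3bp nuclei. *Slc47a1* reached 22.5 and 19.1, against 0.553 and 0.265, and *Adamtsl3* 14.3 and 15.3, against 1.08 and 0.812. *Slc26a7* reached 5.66 and 4.61, against 0.0740 and 0.0688, and *Rspo3* 4.16 and 3.55, against 0.144 and 0.0966. Since these levels follow from the choice, each gene was also measured in nuclei chosen by the other 4 genes at the same limits. The levels moved little, to 21.3 and 19.4 for *Col25a1*, 22.1 and 18.3 for *Slc47a1*, 5.66 and 4.64 for *Slc26a7*, 4.19 and 3.56 for *Rspo3*, and 13.9 and 15.9 for *Adamtsl3*. Every nucleus found with 4 genes also belonged to the chosen nuclei, which the rule nearly fixes by construction. *Itgbl1*, one of the 6 genes set against them, was at 4.66 and 3.19 in the chosen nuclei and at 3.67 and 2.26 in the Scara5, Abi3bp nuclei.

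**Figure D2:**
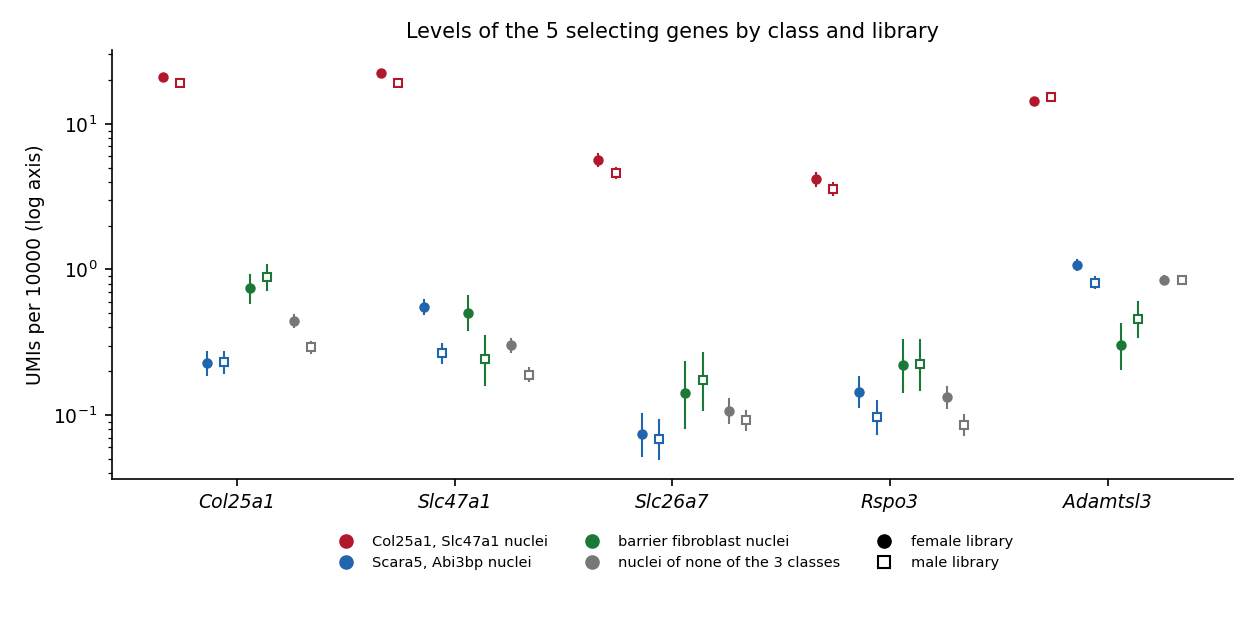
UMIs per 10000 (log axis) of the 5 choosing genes in the 4 classes of nuclei, with the female library as filled circles, the male library as open squares and bars for the exact 95% Poisson interval. All 5 genes are highest in the Col25a1, Slc47a1 nuclei in both libraries, which the choice itself produces.

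All 5 genes were seen together in 82 female nuclei (37.1%) and 97 male nuclei (24.9%), 4 of them in 56 and 114, and only 1 in 21 and 23. *Slc47a1* had a UMI in 89.6% and 94.9% of the chosen nuclei, against 4.27% and 5.27% of the remaining nuclei. At a fixed depth of 1000 UMIs per nucleus, which left out 19 shallower nuclei of the remaining set, the shares were 80.4% and 82.6%, against 2.14% and 2.28%. *Col25a1* had a UMI in 68.3% and 61.8% of the chosen nuclei, or 57.8% and 52.0% at the fixed depth. A nucleus without a *Col25a1* UMI at this depth therefore cannot be called negative.

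Genes were next compared between the chosen nuclei and the Scara5, Abi3bp nuclei within each library, as log2 ratios of summed UMIs per 10000 with 0.5 UMIs added. A gene was called when it was at least 2-fold different in the same direction in both libraries, with both intervals off 0 on the log2 scale, among genes with at least 20 UMIs in each library. Of 13892 genes, 400 were higher (2.88%) and 486 lower (3.50%), rule genes included. Against the strict subset, 254 of 11077 genes were higher (2.29%) and 366 lower (3.30%). The median log2 ratio over all genes lay between -0.10 and -0.02 in these comparisons. Because the nuclei were chosen on the same counts, these calls are descriptions and not tests.

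**Figure D3:**
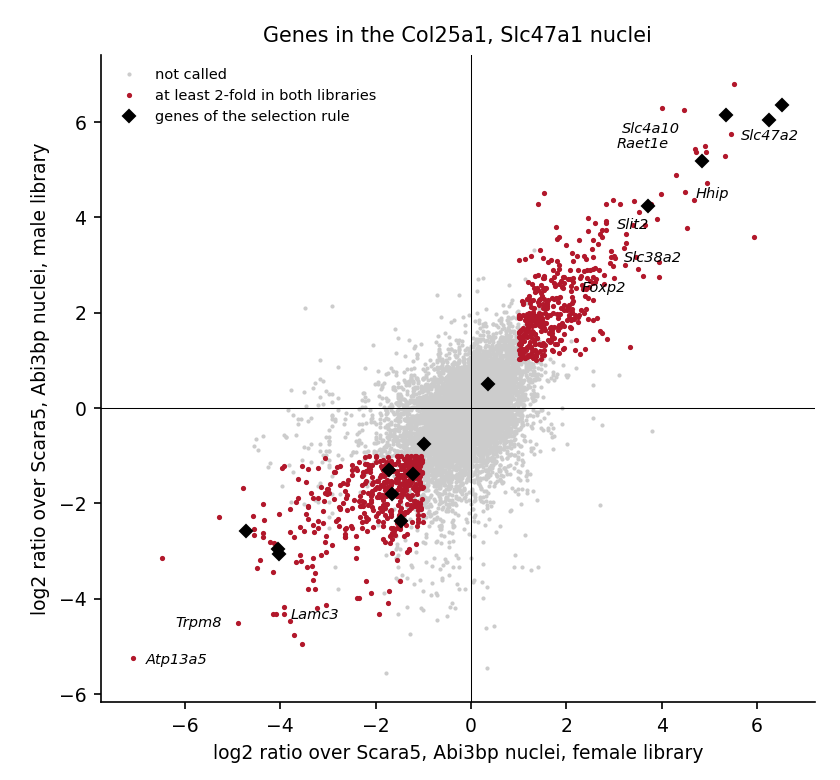
Log2 ratio of UMIs per 10000 in the Col25a1, Slc47a1 nuclei over the Scara5, Abi3bp nuclei for females (horizontal) and males (vertical), 1 point per gene with at least 20 UMIs in each library. Red points are the called genes (400 higher and 486 lower, rule genes included), black diamonds the 14 genes of the rule, and *Slc4a10*, *Slc47a2*, *Hhip* and *Raet1e* lie near the top right in both libraries.

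Solute carriers supplied the most marked genes. *Slc4a10*, which encodes a sodium-coupled bicarbonate transporter, stood at 39.2 and 32.7 UMIs per 10000, from 3390 and 4130 UMIs. In the Scara5, Abi3bp nuclei it stood at 1.31 and 0.724, in the barrier fibroblast nuclei at 1.33 and 0.442, and in the remaining nuclei at 1.12 and 0.915. It was high in both libraries of the chosen nuclei and low in both libraries of every other class. The log2 ratio over the Scara5, Abi3bp nuclei was 4.91 (4.79 to 5.03) and 5.50 (5.35 to 5.64), and over the strict subset 4.29 and 4.37. A *Slc4a10* UMI was present in 90.0% and 92.6% of the chosen nuclei, and in 83.5% and 84.3% at 1000 UMIs, against 7.47% and 5.94% of the remaining nuclei at that depth.

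*Slc38a2*, a sodium-coupled transporter of neutral amino acids, was at 29.8 and 32.3 UMIs per 10000, against 3.75 and 3.54 in the Scara5, Abi3bp nuclei. Its relative *Slc38a1* was at 1.92 and 2.15, against 0.347 and 0.368. *Slc23a2*, which takes up vitamin C, was at 5.63 and 7.0, against 0.966 and 0.694. All 3 were called higher against the Scara5, Abi3bp nuclei, the strict subset and the barrier fibroblast nuclei. So were *Slc26a2*, a sulfate transporter (2.52 and 2.31, against 0.160 and 0.102), *Slc16a9* of the monocarboxylate transporter family (2.36 and 2.71, against 0.329 and 0.179), and *Slc5a6*, a vitamin transporter (0.844 and 0.689, against 0.0896 and 0.0852).

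Other carriers, named with their values known, were *Slc9a2* and *Slc9b2* of protons and *Slc12a7* of potassium and chloride. *Slc9a2*, a sodium-proton exchanger, was at 1.92 and 1.68, against 0.183 and 0.116, and *Slc9b2*, a sodium-proton antiporter, at 2.44 and 1.83, against 0.158 and 0.218. *Slc12a7*, a potassium-chloride cotransporter, was at 1.42 and 1.21, against 0.323 and 0.182. *Car13*, a carbonic anhydrase and no solute carrier, was at 1.35 and 1.93, against 0.127 and 0.0950. The bicarbonate cotransporter gene *Slc4a4* was at 14.4 and 8.86, against 6.28 and 2.76, but was not called against the strict subset (8.41 and 4.07).

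*Slc47a2* encodes the close relative of the *Slc47a1* exporter and lies beside it at chr11:61301631-61342860 on the same strand. It was at 3.19 and 2.26 UMIs per 10000, against 0.0720 and 0.0409. How reads of the neighbouring paralogs were divided between the 2 genes is uncertain, so its level may hold reads of *Slc47a1*.

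As a whole the solute carriers went both ways. Leaving out rule genes, 17 of 237 were higher (7.17%) and 17 lower (7.17%), against 2.88% and 3.50% of all genes. Their median log2 ratio was -0.10 and -0.07. Against the strict subset 16 of 190 were higher (8.42%) and 11 lower (5.79%), compared with 2.29% and 3.30% of all genes. Among those lower were carriers that were high in the barrier fibroblast nuclei. *Slc7a11*, a cystine-glutamate exchanger, was at 0.127 and 0.158, against 10.7 and 8.97 in the barrier fibroblast nuclei. *Slc13a3*, a dicarboxylate transporter, was at 0.0231 and 0.0475, against 2.43 and 1.86, and *Slc6a12*, a betaine and GABA transporter, had 1 and 0 UMIs.

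**Figure D4:**
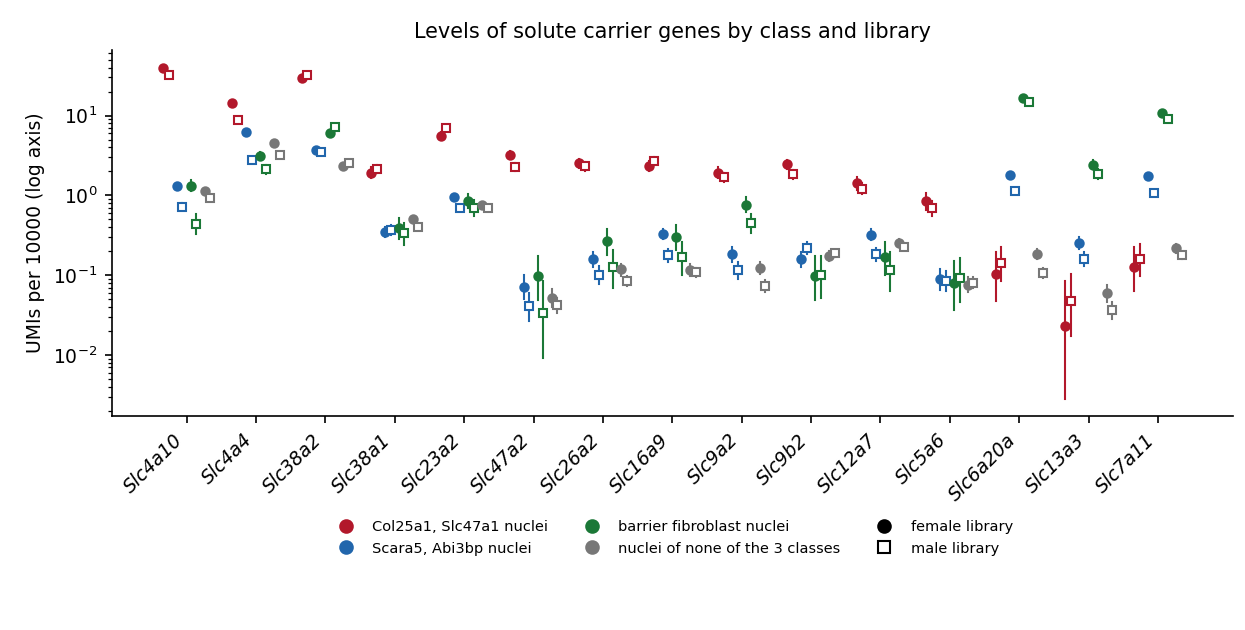
UMIs per 10000 (log axis) of 15 solute carrier genes in the 4 classes of nuclei, with the female library as filled circles, the male library as open squares and bars for the exact 95% Poisson interval. The 12 genes from *Slc4a10* to *Slc5a6* are highest in the Col25a1, Slc47a1 nuclei, and *Slc6a20a*, *Slc13a3* and *Slc7a11* are highest in the barrier fibroblast nuclei. The genes were picked with their values known.

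In the Wnt and R-spondin list, 6 of 42 genes apart from rule genes were higher (14.3%) and 3 lower, against 2.88% and 3.50% of all genes, with medians of 0.10 and 0.35. The balance turned in the other comparisons, with 3 of 32 higher and 5 lower against the strict subset, and 3 of 35 higher and 8 lower against the barrier fibroblast nuclei. Over all genes, 2.29% were higher and 3.30% lower against the strict subset, and 2.88% and 3.99% against the barrier fibroblast nuclei. *Sfrp4*, a secreted Wnt antagonist, was at 1.05 and 0.815 UMIs per 10000, against 0.197 and 0.0933, and the ligand *Wnt9a* was at 0.451 and 0.340, against 0.167 and 0.0917. The Wnt effectors in the nucleus *Tcf7l1* (2.29 and 1.73, against 0.808 and 0.477) and *Tcf7l2* (4.38 and 3.84, against 1.45 and 0.894), were higher too, as were the co-receptor *Lrp5* and *Rnf43*, a ubiquitin ligase that removes Wnt receptors. *Rspo2*, a relative of *Rspo3*, was lower, at 0.243 and 0.261 against 0.656 and 0.786. The R-spondin receptor *Lgr6* had 2 and 0 UMIs. The Wnt receptor *Ror2* was at 0.208 and 0.293, against 1.43 and 1.27.

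Of 32 genes of BMP, TGF-beta and GDF signalling, 9 were higher (28.1%) and 0 lower, against 2.88% and 3.50% of all genes. Their median log2 ratios were 0.60 and 0.78, against -0.05 and -0.02 over all genes. Against the strict subset 5 of 26 were higher and 1 lower, with medians of 0.22 and 0.29, where 2.29% and 3.30% of all genes were. The ligand *Bmp4* was at 0.891 and 0.522 UMIs per 10000, against 0.132 and 0.0426, and *Bmp5* at 1.90 and 1.83, against 0.668 and 0.423. *Bmper*, which encodes a secreted BMP-binding protein, was at 3.99 and 2.80, against 0.658 and 0.450. Genes known as BMP targets or feedback regulators were among the 9. *Smad6*, an inhibitor of the pathway, was at 1.78 and 1.37, against 0.376 and 0.183, and *Id1* at 0.983 and 1.25, against 0.276 and 0.252. *Bmp4*, *Bmper*, *Smad6*, *Smad9* and *Id1* were called against all 3 compared classes, while *Bmp5*, *Id2* and *Tgfbr1* were not called against the strict subset. *Hhip*, whose membrane protein binds hedgehog ligands, was at 2.20 and 2.07, against 0.0974 and 0.0884, with log2 ratios of 4.49 (4.04 to 4.98) and 4.54 (4.12 to 5.0).

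Matrix genes went both ways. Of 33 collagen genes other than *Col25a1*, 5 were higher (15.2%) and 5 lower (15.2%) than in the Scara5, Abi3bp nuclei, against 2.88% and 3.50% of all genes. Against the strict subset 4 of 30 were higher (13.3%) and 10 lower (33.3%), compared with 2.29% and 3.30% of all genes. *Col8a1*, which encodes a short network-forming collagen, was at 12.9 and 9.68 UMIs per 10000, against 2.18 and 1.29, and 4.84 and 4.57 in the strict subset. Its partner chain *Col8a2* was at 0.474 and 0.443, against 0.0662 and 0.0328, and the fibril-associated *Col12a1* at 3.26 and 2.22, against 0.343 and 0.201. *Col23a1* and *Col6a1* were the other collagens that were higher. The basement membrane chains *Col4a5* (0.185 and 0.135, against 0.493 and 0.303) and *Col4a6* (0 and 3 UMIs) and the basement membrane zone collagen *Col15a1* (0.231 and 0.127, against 0.935 and 0.627) were lower.

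Of 45 other matrix genes, 3 were higher (*Egflam*, *Hmcn1* and *Emilin1*, 6.67%) and 5 lower (11.1%), against 2.88% and 3.50% of all genes. Against the strict subset 0 of 37 were higher and 14 lower (37.8%), compared with 2.29% and 3.30% of all genes. The medians were -0.94 and -0.90 apart from rule genes. *Lama2*, a laminin chain, was at 5.19 and 4.73 in the chosen nuclei and 16.3 and 16.8 in the strict subset. *Lamc3*, another laminin chain, and *Has2*, which makes hyaluronan, had 0 UMIs in both libraries. Of 18 ADAMTS genes other than *Adamtsl3*, 4 were higher (22.2%) and 1 lower (5.56%) than in the Scara5, Abi3bp nuclei, against 2.88% and 3.50% of all genes. *Adamtsl1* stood out among them, at 6.78 and 5.54 against 0.537 and 0.383. *Adamts3*, which processes procollagen, was at 0.995 and 0.815, against 0.199 and 0.136.

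Among growth factors and their receptors, 8 of 51 genes were higher (15.7%) and 1 lower (1.96%), against 2.88% and 3.50% of all genes. Against the strict subset, however, 3 of 44 were higher (6.82%) and 7 lower (15.9%), compared with 2.29% and 3.30% of all genes. *Pdgfc*, a platelet-derived growth factor, was at 0.960 and 0.443, against 0.162 and 0.124, and *Met*, the receptor of hepatocyte growth factor, at 0.416 and 0.277, against 0.119 and 0.0590. Both kept the call against the strict subset. *Egfr* (6.41 and 4.92) and *Igfbp5* (6.57 and 6.97) were called higher than in the Scara5, Abi3bp nuclei and not against the strict subset (4.98 and 4.87, and 5.28 and 4.09). Of 22 retinoid and prostaglandin genes, 6 were higher (27.3%) and 4 lower (18.2%), against 2.88% and 3.50% of all genes. Against the strict subset 1 of 21 was higher (4.76%) and 3 lower (14.3%), compared with 2.29% and 3.30% of all genes. The retinoic acid receptor *Rarb* was at 3.32 and 1.68, against 0.763 and 0.400. *Cyp26b1*, which degrades retinoic acid, had 0 and 3 UMIs in the chosen nuclei.

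Of 46 axon guidance genes, 5 were higher (10.9%) and 5 lower (10.9%), against 2.88% and 3.50% of all genes. *Slit2*, a secreted repellent of axons, was at 12.1 and 12.3 UMIs per 10000, against 1.70 and 0.837, with log2 ratios of 2.84 (2.70 to 2.97) and 3.88 (3.73 to 4.03), and it was called against all 3 classes. Its receptor gene *Robo1* was not called (3.16 and 2.64, against 3.35 and 4.95). *Ntn1*, *Nrp1*, *Neo1* and *Sema3a* were the others that were higher, with *Sema3a* at 0.405 and 0.807, against 0.150 and 0.0802. Of 50 junction and adhesion genes, 2 were higher and 8 lower (16.0%), against 2.88% and 3.50% of all genes. Against the strict subset 3 of 45 were higher (6.67%) and 7 lower (15.6%), compared with 2.29% and 3.30% of all genes. The 2 genes higher than in the Scara5, Abi3bp nuclei, *Itga5* and *Itgb5*, both encode integrin chains. *Cldn1*, a tight junction gene, was at 0.0578 and 0.0712, against 0.434 and 0.318, and the laminin-binding integrin chain *Itga6* at 0.474 and 0.419, against 1.29 and 1.43. The adhesion gene *Tenm2* was at 3.27 and 2.78, against 14.7 and 11.5. *Pcdh7*, a protocadherin outside the list that was noted after its values were seen, was at 17.3 and 17.5, against 2.27 and 1.79.

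Transcription factors of mesenchyme and position formed the list with the largest share of higher genes among the 11 lists against the Scara5, Abi3bp nuclei. Of 57 genes 20 were higher (35.1%) and 5 lower (8.77%), against 2.88% and 3.50% of all genes. Against the strict subset the balance was even, with 10 of 49 higher and 10 lower (20.4% each), compared with 2.29% and 3.30% of all genes. *Foxp1* was at 35.7 and 34.2 UMIs per 10000, against 8.04 and 5.47, and *Foxp2* at 19.2 and 17.4, against 4.49 and 2.93. Both were called against all 3 classes, as was *Tbx15*, a T-box factor of limb and skin mesenchyme (3.56 and 3.51, against 0.545 and 0.277). *Prrx2*, a homeobox factor of embryonic mesenchyme, was at 0.578 and 0.522, against 0.0604 and 0.0409. *Eya2*, a transcriptional coactivator, was at 7.78 and 8.06, against 1.68 and 0.875, and 4.41 and 3.14 in the barrier fibroblast nuclei.

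*Zic1*, *Zic4*, *Foxc1* and *Foxd1*, known from the meninges and the head, were taken from the list after their values were seen. *Zic1* was at 1.49 and 1.35, against 0.615 and 0.219 and against 1.65 and 1.04 in the barrier fibroblast nuclei. *Zic4* was at 1.03 and 1.16, against 0.257 and 0.106 and against 0.840 and 0.626. *Foxc1* was at 0.821 and 0.609, against 0.352 and 0.233 and against 0.981 and 0.901. *Foxd1* was at 2.48 and 2.01, against 0.841 and 0.473 and against 1.81 and 1.49. *Zic1* and *Zic4* were also called against the strict subset (0.702 and 0.543, and 0.260 and 0.287), and *Foxc1* and *Foxd1* were not (0.520 and 0.503, and 1.45 and 1.32). None of these 4 was called between the chosen and the barrier fibroblast nuclei, which does not show that their levels were the same. Lower were *Ebf1*, *Ebf3*, *Sox5*, *Meox2* and *Osr2*, with *Sox5* at 0.648 and 0.372, against 2.74 and 1.31, and *Meox2* at 0.116 and 0.0791, against 0.461 and 0.292.

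By the rule of the largest fold, the 15 leading higher genes against the Scara5, Abi3bp nuclei included 5 solute carriers of the Slc series, *Slco4a1*, *Adamtsl1*, *Hhip*, *Car13* and *Prrx2*. The others were *Raet1e*, a ligand of the NKG2D immune receptor (0.682 and 0.301, against 0.0253 and 0.00655), the homeobox gene *Vsx1* (0.231 and 0.309), the potassium channel gene *Kcnj15* (0.613 and 0.182), the transcription factor gene *Tfcp2l1* (0.648 and 0.435), and *Afap1l1*, which encodes an actin-associated protein (2.50 and 2.48). Against all other nuclei as 1 class, the leading 15 added *Tspan11*, *Col12a1*, *Tbx15* and *Htra3*. The 10 leading lower genes were *Atp13a5*, *Trpm8*, *Lamc3*, *Gsg1l*, *Slc6a12*, *Slc38a11*, *Lvrn*, *Cntnap5c*, *Oprd1* and *Has2*. Some of these were high in other classes. *Atp13a5* was at 6.06 and 6.02 in the barrier fibroblast nuclei and 0.0774 and 0.0559 in the strict subset, and *Trpm8*, the cold-sensing channel of sensory neurons, was at 0.387 and 0.112 in the strict subset.

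The genes furthest below the strict subset were picked by the same rule after the values were seen. *Pparg*, the lipid and adipocyte regulator, was at 0.301 and 0.198 in the chosen nuclei and 4.43 and 1.91 in the strict subset, and *Ppara*, a regulator of fatty acid use, was at 0.162 and 0.119 against 2.18 and 1.21. *Thbs4*, a matrix thrombospondin, was at 0.0810 and 0.0237, against 0.990 and 1.28. *Abca6*, a transporter of the ABC family, was at 0.174 and 0.261, against 3.46 and 3.42. These genes were low in the chosen nuclei in both libraries, and so were *Lvrn*, *Cldn1*, *Grin2b*, *Ltbp1* and *Sox8*, which the same rule named.

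Against the barrier fibroblast nuclei, 303 of 10525 genes were higher (2.88%) and 420 lower (3.99%). Higher, beside the transporters, were *Vwc2*, which encodes a secreted BMP antagonist (2.38 and 1.5, against 0.0884 and 0.0668), *Bmper* (0.212 and 0.125 in the barrier fibroblast nuclei) and *Slit2* (0.698 and 0.517). Of 25 BMP, TGF-beta and GDF genes 10 were higher (40.0%) and 3 lower, and *Bmp6* was among the lower, at 3.54 and 2.68 against 12.2 and 11.2. *Ptgds*, a prostaglandin D synthase abundant in the meninges, was at 4.57 and 4.26, against 51.1 and 55.8. *Aldh1a2*, which makes retinoic acid, was at 0.150 and 0.0712, against 3.93 and 3.15. Carriers picked by the same rule after the values were seen were *Slc22a8* (1.91 and 1.63 in the barrier fibroblast nuclei) and *Slc16a12* (1.83 and 1.45), each under 0.05 UMIs per 10000 in the chosen nuclei.

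The chosen nuclei varied among themselves. They were divided into 3 near equal parts by the level of the choosing genes, 13.4 to 46.8, 48.0 to 97.6 and 98.0 to 321 per 10000 among females, and 12.2 to 43.8, 44.0 to 80.4 and 80.4 to 317 among males. *Slc4a10* was at 16.2, 52.6 and 69.1 UMIs per 10000 in the lowest, middle and highest part among females and at 15.4, 41.6 and 52.9 among males. *Slc38a2* was at 15.6, 37.2 and 49.2, and at 20.6, 41.6 and 43.0. These genes were thus lowest where the choosing genes were lowest. *Dcn* was nearly level, at 4.46, 3.81 and 3.47 among females and 2.59, 2.60 and 2.07 among males. The neuronal gene *Map2* ran the other way, at 5.23, 0.761 and 0.656 and at 4.31, 0.995 and 0.815, and *Snap25* at 7.62, 2.62 and 2.34 and at 5.88, 3.95 and 3.58. A neuronal gene that did not follow this order among males was *Prph*, at 2.51, 1.73 and 1.69 and at 4.05, 3.8 and 4.60. The lowest part was also the deepest, with a median of 3692 and 2788.5 UMIs against 2643 and 2520 in the highest. Whether neuronal RNA bears on the low levels there was not tested.

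Between the libraries, within the chosen nuclei, a gene was called at a 2-fold difference with its interval off 0, given at least 20 UMIs in both libraries together. Of 10904 genes, 453 were higher among females (4.15%) and 617 among males (5.66%). *Xist*, which coats the inactive X chromosome, was at 11.5 and 0.00791 UMIs per 10000, and the Y-linked *Uty*, with 0 and 289 UMIs, was at least 65.9-fold higher among males against a limit of 3 UMIs. *Eif2s3y*, *Ddx3y* and *Kdm5d*, all Y-linked, had 0 UMIs in the female library. Both libraries fitted their labelled sex.

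Among the other leading genes, *Gabra6* and *Hand2* also differed between the libraries in the remaining nuclei. *Gabra6*, a receptor subunit of cerebellar granule cells, was at 0.440 and 0 UMIs per 10000, and at 0.402 and 0.0124 in the remaining nuclei. *Fam135b*, *Cdh7*, *Brinp3*, *Grm4* and *Exph5* completed the female 8 with *Tsix*. *Hand2*, a factor of sympathetic neurons, was at 0 and 0.253 UMIs per 10000, against 0.0478 and 0.241 in the remaining nuclei, and *Slc10a4*, *Hand2os1* and the pituitary gene *Pomc* completed the male 8.

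The summed level of 8 cerebellar granule cell genes was 14.3 and 1.04 UMIs per 10000 in the chosen nuclei, of which *Kcnd2*, a potassium channel gene of many neurons, gave 12.7 and 0.894, and 12.3 and 1.78 in the remaining nuclei. All 4 measured genes of the list were higher in the female library. The 8 sympathetic neuron genes summed to 0.509 and 5.64, against 1.57 and 5.23, led by *Slc18a2* among females and *Slc6a2* among males, and 8 of 8 were higher in the male library. The 7 pituitary hormone genes summed to 2.30 and 0.704, led by *Prl* among females and *Gh* among males, against 2.45 and 0.655. These lists were made after the values were seen. The libraries thus differed in these sums in the remaining nuclei as well as in the chosen nuclei.

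Among the 400 genes higher than in the Scara5, Abi3bp nuclei, 398 were measured between the libraries, and 20 were higher among females (5.03%) and 8 among males (2.01%), near or below the shares of all genes. *Slc4a10*, *Slc38a2*, *Slit2*, *Foxp1*, *Foxp2* and *Tbx15* were not among them. Several lists leaned to the female library by their calls, and others did not. Of 45 junction and adhesion genes 7 were higher there and 0 in the male, of 43 growth factor genes 7 and 1, and of the collagens 4 of 29 (*Col4a1*, *Col4a3*, *Col5a1* and *Col6a3*) and 0, against 4.15% and 5.66% of all genes. The other matrix genes had 4 of 36 and 0, the axon guidance genes 4 of 40 and 0, and the BMP, TGF-beta and GDF genes 3 of 27 and 0. Solute carriers had 8 of 187 and 12, transcription factors 2 of 49 and 4, and retinoid and prostaglandin genes 1 of 18 and 2. The Wnt and R-spondin list and the ADAMTS list had 0 and 0. The median log2 ratio was 0.74 for the collagens and 0.01 over all genes. Some marker lists leaned the same way, with medians of 0.63 for fibroblast, 0.87 for adipocyte and 2.06 for muscle markers. Negative medians were found for genes of neurons (-0.35), satellite glia (-0.02), sympathetic neurons (-3.33) and pituitary hormones (-0.25), and for the immediate-early genes described below (-1.14). The fibroblast, adipocyte and muscle sums were also higher among females in the remaining nuclei (8.17 and 5.38, 2.54 and 1.15, and 2.30 and 0.539). *Col6a3* was at 0.567 and 0.269, and at 0.479 and 0.270 in the Scara5, Abi3bp nuclei. *Kcnj15* was at 0.613 and 0.182 in the chosen nuclei, with 53 and 23 UMIs.

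To set aside genes shared with the other nuclei, calls were also limited, after the values were seen, to genes at least 2-fold above the remaining nuclei in the library where they were higher. This left 92 genes higher among females and 36 among males. Immediate-early genes, which cells switch on within minutes of a stimulus, were among the 36, with *Egr1*, *Fos*, *Nr4a1*, *Nr4a2*, *Nr4a3*, *Dusp1*, *Sik1* and *Ptgs2*. *Egr1* was at 0.127 UMIs per 10000 (0.0635 to 0.228, 11 UMIs) among females and 0.625 (0.495 to 0.779, 79 UMIs) among males. *Nr4a1* was at 0.231 and 0.728, *Nr4a3* at 0.139 and 0.617, and *Fos* at 0.0578 and 0.222. Intervals of the libraries did not overlap for these 4 genes, which follows largely from their having been called between the libraries.

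In the Scara5, Abi3bp nuclei *Egr1* was at 0.169 and 0.174, *Nr4a1* at 0.199 and 0.110, *Nr4a3* at 0.0487 and 0.0262, and *Fos* at 0.0701 and 0.0590. A list of 26 immediate-early genes, made after the values were seen, summed to 4.57 and 9.73 UMIs per 10000 in the chosen nuclei. Of 17 measured genes 9 were higher among males and 0 among females, against 5.66% and 4.15% of all genes. All of these 9 except *Junb* are the genes named above, which were already called higher among males. The count therefore follows in large part from how the list was made and is a description. The median log2 ratio of the list was -1.14. The sums were 3.89 and 4.19 in the Scara5, Abi3bp nuclei, 4.64 and 5.97 in the strict subset, 3.70 and 5.02 in the barrier fibroblast nuclei and 3.91 and 4.23 in the remaining nuclei. The sum was also higher among males, with intervals apart, in the strict subset (4.34 to 4.97 and 5.55 to 6.41), in the barrier fibroblast nuclei (3.35 to 4.07 and 4.62 to 5.43) and in the remaining nuclei (3.79 to 4.03 and 4.14 to 4.32). Because the genes were noticed among those 2-fold above the remaining nuclei, their level against other classes is fixed in part by that limit and is a description. With 1 pool of ganglia per sex, the pool and the sex cannot be told apart, and the difference between the classes was not tested.

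**Figure D5:**
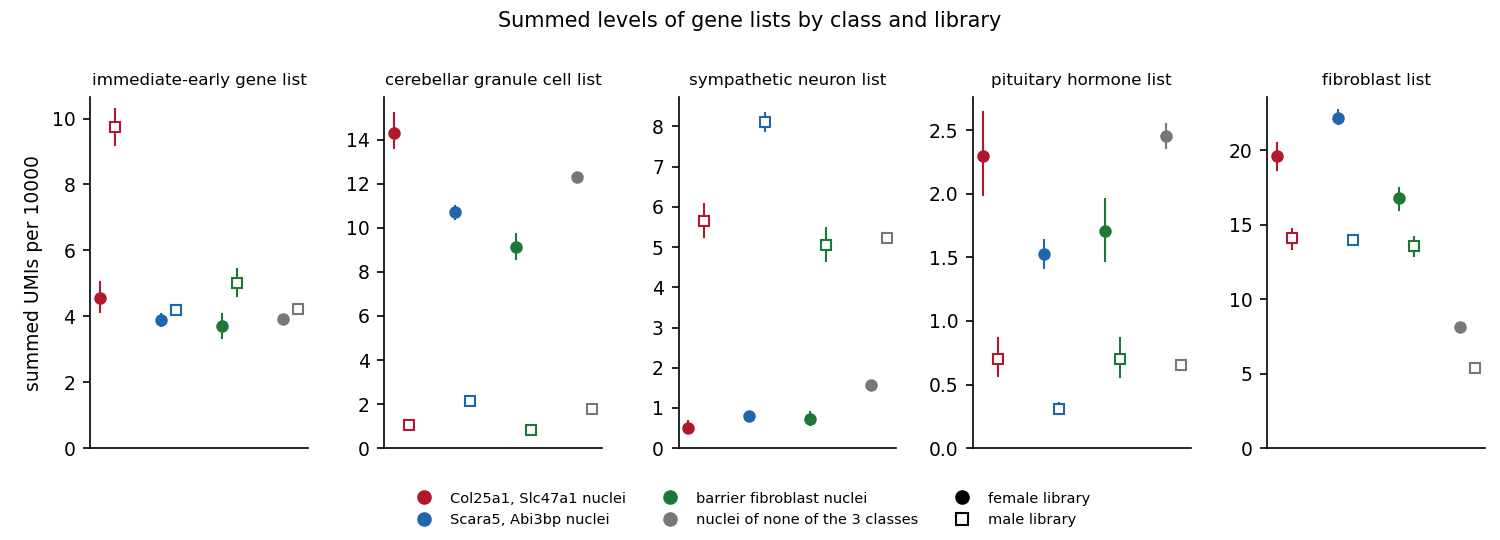
Summed UMIs per 10000 of 5 gene lists in the 4 classes of nuclei, with the female library as filled circles, the male library as open squares and bars for the exact 95% Poisson interval. The immediate-early list, made after its values were seen, is at 9.73 among males in the Col25a1, Slc47a1 nuclei, while the other classes lie from 3.70 to 5.02. It is also higher among males, with intervals apart, in the barrier fibroblast and remaining nuclei. The granule cell, sympathetic and pituitary lists differ between the libraries in every class.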

How the data were processed

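Nuclei from 1 pool of ganglia per sex were captured with 10x Genomics 3' v3.1 kits. The authors aligned reads with Cell Ranger 7.1.0 to mm10 with introns included, cleaned barcodes with DIEM and a limit of 1000 UMIs, under which 19 deposited nuclei fall, and deposited 1 matrix of UMI counts (32286 genes, 8714 nuclei) over 2 aggregated libraries, whose mapped reads were equalised on joining, so counts of the deeper library may be below those sequenced. The barcode suffix was read as female for 1 and male for 2 because the nuclei with each suffix are as many as the study gives for that sex. *Xist* and Y-linked counts fitted this. Here, Python 3.11.15, numpy 2.4.6, scipy 1.17.1 and pandas 2.3.3 were used. The members, gene lists and rules were chosen with earlier results of these data known. UMIs were summed per class and library, and shares have Clopper-Pearson, levels Poisson and ratios conditional binomial 95% intervals. The calls were tried on simulated data. Named genes were the 15 higher and 10 lower of the largest smaller fold among called genes, the 15 highest against all other nuclei and the 8 highest per library, without rule genes, symbols of Gm plus a number, Rik or mt-, together with rule, marker and listed genes. Alternatives changed the limits, the fold, the minimum counts, the compared class and the library used. A glial marker list is not reported here. Gene positions are of 32235 identifiers found in GENCODE models.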

Additional observations from a re-analysis of the deposited data

Results flagged for a closer look

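Of 13892 genes compared with the Scara5, Abi3bp nuclei, 10 were at least 2-fold different in opposite directions in the 2 libraries with both intervals off 0, and 6 of them have ordinary gene names. The log2 ratio was 1.02 among females and -1.35 among males for *Adat1* and 1.10 and -1.13 for *Prom1*. It was -3.48 and 2.11 for *Nxph1*, -2.92 and 2.15 for *Rmst*, -2.06 and 1.32 for *Skap1* and -1.59 and 1.66 for *Ptprc*. The chosen nuclei held few UMIs of these genes, with 1 among females and 16 among males for *Nxph1* and 4 and 24 for *Ptprc*, a marker of blood cells. The difference between the libraries was not tested for any of the 6.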

How the results depend on the processing

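Of 126 alternative values, 91 stayed within their counting interval, the interquartile range over the genes of a list (for medians) or 1.5 times the main count, and 35 moved further. No list median changed sign when all ratios were centred on the median of all genes. The share of chosen nuclei became 6.97% in the male library with no barrier gene UMI allowed, 7.25% in the female library among nuclei of over 2000 UMIs, and 8.20% and 10.8% without possible mixed nuclei. Genes higher than in the Scara5, Abi3bp nuclei numbered 664 at 1.5-fold, 182 at 3-fold, 254 against the strict subset (193 of them shared with the 400), 594 among females alone and 823 among males alone. Genes lower numbered 863 at 1.5-fold, 193 at 3-fold, 767 with a limit of 20 per 10000, 954 among females alone and 1316 among males alone, and of the 366 lower against the strict subset 131 were shared with the 486. Between the libraries, the female side had 979 genes at 1.5-fold, 172 at 3-fold and 234 with at least 50 UMIs, and the male side 1300 and 143 at the same folds. Limited, after the data were seen, to genes 2-fold above the remaining nuclei, the sides had 92 and 36. Against barrier fibroblast nuclei, also added after the data were seen, 550 genes were higher and 707 lower in the female library alone, and 564 and 738 in the male. Lower folds, and asking for 1 library, pass more genes by construction. Higher folds, the minimum of 50 UMIs and the limit against the remaining nuclei pass fewer by construction. The cause of the other shifts was not tested. Shares of nuclei with a UMI fell at 1000 UMIs, as the report gives. No paired analysis was possible because each sex has 1 library and no replicate.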
